A study of Rattus norvegicus with 3 samples.

Results

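Regions of the newborn rat liver genome that gained captured methylated DNA on a low protein diet, and that were still gained when folic acid was added to that diet, are described here. A region was counted when it stood in the list of MLP gains over C (MLP vs. C), overlapped by at least 1 bp a region in the list of MLP-F gains over C (MLP-F vs. C), and overlapped none in the list of MLP gains over MLP-F (MLP vs. MLP-F). The rule found 7380 persisting regions among the 34126 MLP vs. C regions on chromosomes 1 to 20, which is 21.6% of them. The members were chosen by the measured lists of all 3 comparisons, so their scores, lengths and overlaps are given as a description, with no test.

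The 3 groups were livers of male Wistar rats on postnatal day 1, named by the diet of the dam. MLP dams were fed a low protein diet, MLP-F dams the low protein diet supplemented with folate, and C dams the normal diet. No group received extra folate on the normal diet. DNA from each group was pooled into 1 MBD-seq library, from 6 animals by the labels, while the study's text gives a larger pool, and 1 litter was studied in each group. Litter, pool and diet cannot be told apart, no value has a replicate check, and both comparisons with C use the same C library. The lists carry no measure of liver cell identity, so the tissue label was not checked.

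DNA methylation is the addition of a methyl group to cytosine, mostly at CpG sites in mammals. The methyl groups come from S-adenosylmethionine, which is remade through the one-carbon cycle that folate feeds. In MBD-seq, sheared DNA is captured by the methyl-CpG-binding domain of a protein and sequenced. A gain is a region that took up more of the captured DNA in the first library of a pair, with depth allowed for.

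Each deposited region has a position on the rat assembly rn4 and a score, in which the peak caller MACS writes its p as −log10 multiplied by 10. The lowest score in the lists is 50, a p of 1e-05. A score depends on the depth of both libraries as well as on the size of the difference. By the study's read counts MLP was the deepest library and C the shallowest, and the lists themselves hold no depth. Absence from the MLP vs. MLP-F list means that no MLP excess over MLP-F reached that p, which does not show that the libraries were equal. Regions higher in MLP-F than in MLP were not analysed here.

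Of 5 loci that the study assayed by bisulfite sequencing, the region at Mcm6, annotated in the study's primer table as intronic, was the only persisting one. The study's figure of that assay compares C with MLP livers and gives no bisulfite percentage for MLP-F. Persistence at Mcm6 is therefore read from the region lists alone. Mcm6 encodes a subunit of the helicase that unwinds DNA at replication origins. Bisulfite turns unmethylated cytosine into uracil, read as T, and leaves methylated cytosine as C. The primers designed for this locus are shown because their base makeup follows from the conversion on which the methylation assay rests. The region lies on chromosome 13, and the strand was not checked. Capitals mark every T of the forward primer (9) and every A of the reverse primer (11), whether or not a converted base.
Mcm6 forward: TTTggTaaaTggagTTgggaTaTaa
Mcm6 reverse: ctttAcAAcAtctctAAAcAAAtctAtcc
The forward primer of 25 bases holds no C and the reverse primer of 29 bases holds no G.

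The Mcm6 region lies at chr13:41055046-41056193 and scored 50.53 in MLP vs. C, just over the lowest score in the list. The overlapping MLP-F vs. C region lies at chr13:41054853-41055638 and scored 60.45. They share 593 of the 1148 bp of the MLP vs. C region. Among the other assayed loci, the regions at Agtrap and Dnmt1 were also listed in MLP vs. MLP-F, that at Sfmbt1 was listed in all 3 comparisons, and that at Fgf5 was in neither other list.

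The persisting regions were mostly of low score. Their median MLP vs. C score was 85.43 (quartiles 65.23 and 123.87, range 50.03 to 1695.85), against a median of 77.04 over all MLP vs. C regions on these chromosomes. A score of at least 100 was held by 2828 members (38.3%), beside 30.7% of all MLP vs. C regions. The MLP-F vs. C regions that they overlapped had a median score of 77.73 (quartiles 61.65 and 105.6, range 50.01 to 2034.65), against 69.33 over all MLP-F vs. C regions. Here 2089 members (28.3%) had a partner of at least 100, beside 18.8% of all MLP-F vs. C regions. The rule used these contrasts, so nothing is read from these shares.

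Both scores were under 100 in 3488 members (47.3%) and both were at least 100 in 1025 (13.9%). Only 78 members had both scores at 200 or more. The MLP-F vs. C score exceeded the MLP vs. C score in 3149 members (42.7%), and it was at least 3 times as high in 101. The MLP vs. C score was at least 3 times as high as the partner's in 199.

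**Figure D1:**
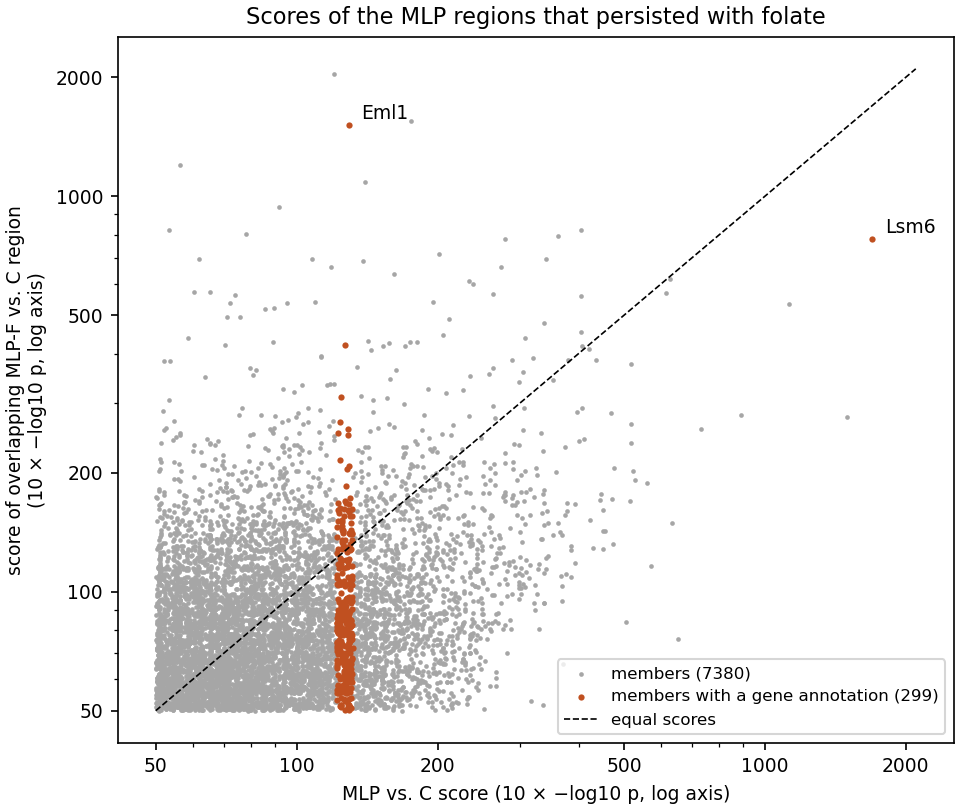
MLP vs. C score (x, log axis) and score of the overlapping MLP-F vs. C region (y, log axis) for each of the 7380 members, with the 299 members that have a gene annotation in orange and a dashed line at equal scores. Most points lie under 200 on both axes, Lsm6 is the member farthest to the right (1695.85), and the orange points form a narrow band because all annotated members but Lsm6 scored 121.79 to 131.76 in MLP vs. C.

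Members had a median length of 659 bp (range 244 to 3770), against 670 bp over all MLP vs. C regions, and 32 members (0.434%) reached 2000 bp, beside 0.718% of all. The overlap with the MLP-F vs. C region had a median of 559 bp and covered a median of 91.7% of the member. At least 50% was covered in 7191 members (97.4%), all of it in 2249 (30.5%), and under 10% in 12. The members corresponded to 7378 different MLP-F vs. C regions, 30.4% of the 24305 on these chromosomes. Single partners were found for 7354 members, and 26 had 2, of which the higher score is used. The longest member, at chr3:129993-133762, spanned 3770 bp with scores of 87.75 in MLP vs. C and 257.27 in MLP-F vs. C.

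At the edge of the rule, the smallest overlap was 2 bp, at chr19:11607858-11608476, which scored 51.45 in MLP vs. C and 112.67 in MLP-F vs. C. The next smallest overlap was 21 bp. Just outside, the region at chr3:99862272-99862848 (MLP vs. C score 53.44) touched an MLP-F vs. C region without sharing a base, and that at chr4:134320722-134321114 (56.85) stopped 4 bp short of one. On the other side of the rule, 226 members (3.06%) lay within 1 kb of an MLP vs. MLP-F region and 1947 (26.4%) within 10 kb, and the smallest gap was 5 bp.

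The share of MLP vs. C regions that persisted differed with score. It was 17.7% of those scoring 50 to under 75, 22.6% of 75 to under 100, 27.2% of 100 to under 150, 29.9% of 150 to under 200, 24.8% of 200 to under 500, and 9.09% (18 of 198) of those at 500 or more. Regions in neither other list made up 53.5% of the lowest band and 0 of the 198 regions of the highest. For the highest band the 95% Wilson interval reaches 1.90%, which covers counting error only. Bands and listings both come from values that the rule used, so nothing is read from these shares. Of the regions at 500 or more, 58.1% were listed in MLP vs. MLP-F only and 32.8% in all 3 comparisons.

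**Figure D2:**
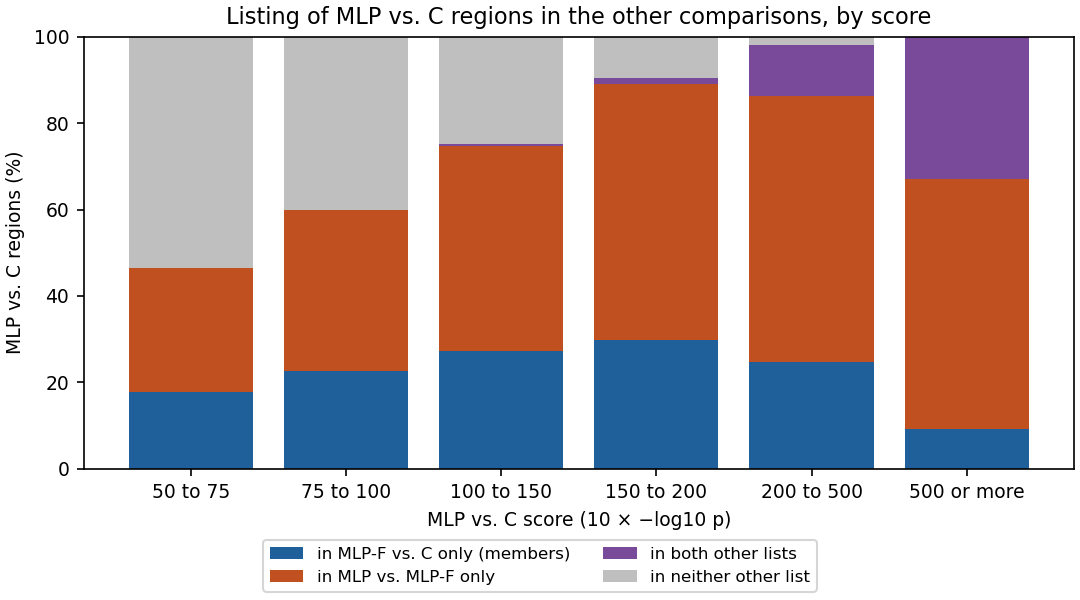
Percent of MLP vs. C regions on chromosomes 1 to 20 (y) in each band of MLP vs. C score (x) that were listed in MLP-F vs. C only (the members), in MLP vs. MLP-F only, in both or in neither. The member share is largest at 150 to 200 (29.9%) and smallest at 500 or more (9.09%).

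The member with the highest MLP vs. C score lay upstream of Lsm6, at chr19:30939971-30940592. Lsm6 encodes a subunit of the ring of proteins that binds U6 small nuclear RNA. The region scored 1695.85 in MLP vs. C and 780.53 in MLP-F vs. C, and all of its 622 bp were covered. The next members, which carry no gene annotation, were at chr9:93084288-93086496 (1498 in MLP vs. C and 276.03 in MLP-F vs. C), at chr7:19285517-19286816 (1123.25 and 534.27) and at chr7:19833640-19834580 (888.12 and 279.29). Only the first 3 of these members reached 1000 in MLP vs. C. The member at chr11:85333410-85334079 (732.13 and 257.76) lay 122 bp from an MLP vs. MLP-F region. All 10 of the highest MLP vs. C scores were above the partner's own score.

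A different set had the highest MLP-F vs. C scores. The region at chr19:44905109-44906227 scored 120.02 in MLP vs. C while its partner scored 2034.65, the highest score in the MLP-F vs. C list on these chromosomes. At chr3:91745780-91746345 the scores were 175.81 in MLP vs. C and 1550.09 in MLP-F vs. C. An intronic region of Eml1, which encodes a microtubule-binding protein, scored 129.08 and 1514.1, at chr6:132844436-132845455. The region at chr1:171993518-171993922 scored 56.35 in MLP vs. C, near the bottom of that list, and 1199.07 in MLP-F vs. C. Partner scores of 500 or more were found for 36 members and own scores of 500 or more for 18. None of the 10 regions with the highest partner scores was among the 10 with the highest MLP vs. C scores.

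Persisting regions were found on every chromosome from 1 to 20. The share ranged from 19.0% (347 of 1825 regions, 95% Wilson interval 17.3 to 20.9) on chromosome 10 to 25.1% on chromosome 15 (330 of 1317, 22.8 to 27.5) and on chromosome 17 (336 of 1340, 22.8 to 27.5). The intervals of chromosomes 1, 5 and 10 lay below the share over all chromosomes and those of 15 and 17 above it. These intervals cover counting error only, treat neighbouring regions as separate, and were not adjusted for the 20 chromosomes compared. The share listed in MLP vs. MLP-F only was 34.9% on chromosome 15, 33.4% on 17, 43.1% on 5 and 37.7% on 10.

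**Figure D3:**
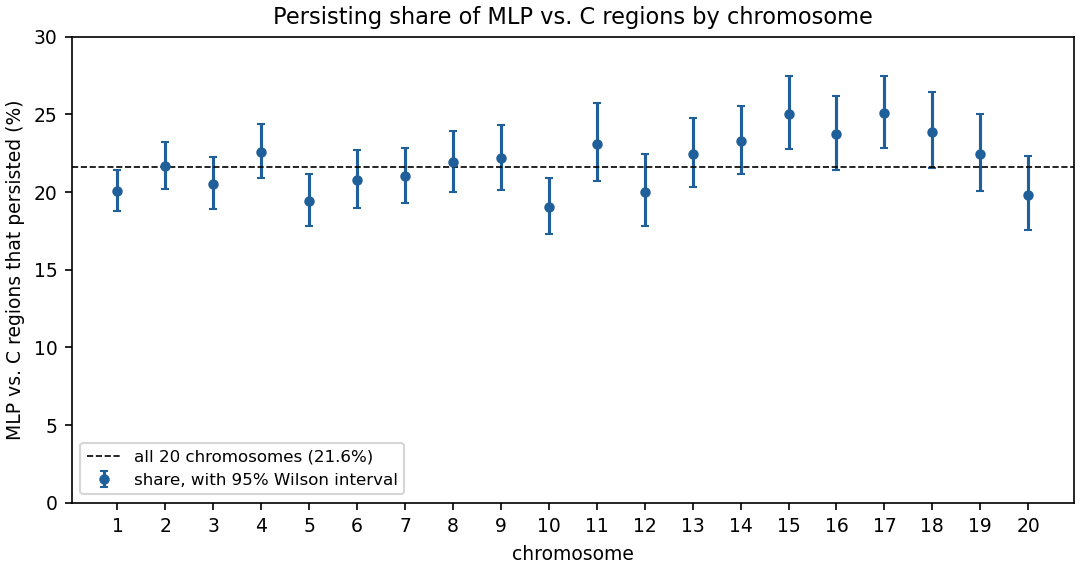
Percent of MLP vs. C regions that persisted (y) on each of chromosomes 1 to 20 (x), with 95% Wilson intervals as bars and the share over all 20 chromosomes (21.6%) as a dashed line. The lowest point is chromosome 10 (19.0%) and the highest are 15 and 17 (25.1% each).

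Members were spread along the chromosomes. Of 2557 windows of 1 Mb that held an MLP vs. C region, 2090 held a member, with a median of 3 members, and 61 held 10 or more. The window from 49 to 50 Mb of chromosome 17 held 15 members among 21 MLP vs. C regions (71.4%), with MLP vs. C scores of 51.61 to 195.39 and a highest partner score of 541.68. The windows with as many members were at 160 to 161 Mb of chromosome 3, with 15 of 44 regions, and 181 to 182 Mb of chromosome 4, with 15 of 35. Another member lay within 10 kb of 879 members (11.9%).

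Nearest genes were available for the regions that the study had selected by false discovery rate (FDR) and annotated as differentially methylated regions (DMRs). Of 1145 such DMRs on chromosomes 1 to 20, 299 persisted (26.1%, 95% Wilson interval 23.7 to 28.7), with 244 different gene names and 37 without a name. The MLP-F vs. C list used for persistence reaches down to a MACS p of 1e-05 and prints no FDR. For the larger deposited collection of MLP vs. C regions, the study's text names a looser FDR than for the DMRs. Persistence here is thus judged at a looser threshold than the one that selected the DMRs. Persistence does not make the MLP-F vs. C region a DMR, and the study itself reports no DMR for MLP-F against C. Of all MLP vs. C regions scoring 100 to under 150, annotated or not, 27.2% persisted. The annotated members are not the strongest ones, since of the 496 members at 200 or more in MLP vs. C only that at Lsm6 is annotated. The MLP vs. C scores of 298 of the persisting DMRs fall between 121.79 and 131.76, so the MLP-F vs. C score is the value that varies. It had a median of 82.45 and ranged from 50.26 to 1514.1, and 95 DMRs (31.8%) reached 100. Of the 36 annotated DMRs with an MLP vs. C score of 1000 or more, only that at Lsm6 persisted. A nearest gene is a position and not a measured effect on that gene.

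Place in a gene was not used by the rule. Persisting DMRs were intronic in 124 cases (41.5%, 36.0 to 47.1), against 347 of the 846 other annotated DMRs (41.0%, 37.8 to 44.4), a difference of 0.46 percentage points (95% Newcombe interval −5.93 to 6.99). Upstream positions held 85 persisting DMRs (28.4%), against 260 of the others (30.7%), and downstream positions 85 (28.4%), against 216 (25.5%). Exons or their edges held 2 persisting DMRs, at Thap1 and at an unnamed gene on chromosome 4, against 13 of the others. Thap1 was chosen after its values were seen.

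Repeat names, also not used by the rule, differed between the persisting DMRs and the others. LINE 1 elements are retrotransposons that mammalian cells usually keep methylated, and L1_Rn is a family of the rat. L1_Rn was named beside 12 of the 299 persisting DMRs (4.01%, 2.31 to 6.88), against 119 of the 846 others (14.1%, 11.9 to 16.6). The difference was −10.1 percentage points (95% Newcombe interval −13.1 to −6.45). Any LINE 1 name, taken as one that starts with L1 or Lx, was given for 48 persisting DMRs (16.1%, 12.3 to 20.6), against 234 others (27.7%, 24.8 to 30.8), a difference of −11.6 points (−16.5 to −6.17).

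The lower LINE 1 share was found against both main kinds of other DMR. The few other DMRs listed in every comparison, and so also in MLP-F vs. C, were not summarised separately. The lower share is therefore not shown to be particular to persisting DMRs among those listed in MLP-F vs. C. L1_Rn was named beside 90 of the 564 DMRs that were also in MLP vs. MLP-F only (16.0%, 13.2 to 19.2) and beside 28 of the 262 in neither other list (10.7%, 7.50 to 15.0). Without the DMRs of 1000 or more, L1_Rn was named beside 12 of 298 persisting DMRs (4.03%) and 119 of 811 others (14.7%). The score range of those 811 was not summarised, so the comparison is not shown to be matched for score. The annotation lists 1 or more repeat names for a DMR, or none. A DMR is counted where a name stands anywhere in its list. DMRs with more names have more ways to be counted, and the number of names was not allowed for. The names were not checked against sequence, and the part of read placement in repeats was not tested. These intervals cover counting error only. The LINE 1 and (TG)n comparisons were chosen after their values were seen, and the intervals were not adjusted for the other repeats looked at.

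**Figure D4:**
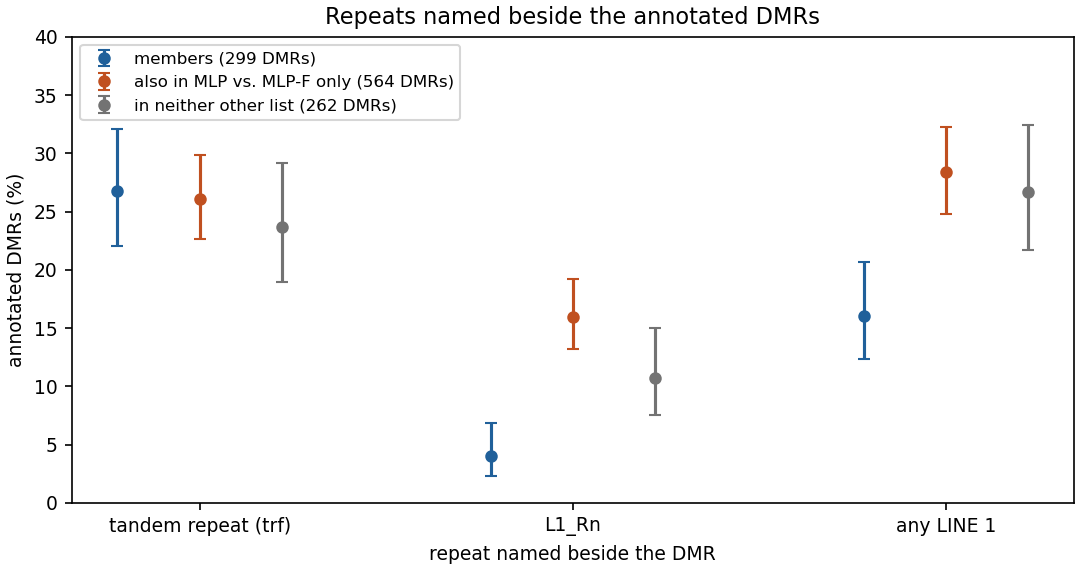
Percent of annotated DMRs (y) beside which a tandem repeat, L1_Rn or any LINE 1 was named (x), for persisting DMRs, for DMRs also in MLP vs. MLP-F only and for DMRs in neither other list, with 95% Wilson intervals as bars. For L1_Rn the interval of the persisting DMRs (2.31 to 6.88) lies below both other intervals, and for tandem repeats all 3 intervals overlap.

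Tandem repeats, short units repeated head to tail, were named beside 80 persisting DMRs (26.8%), against 225 others (26.6%), a difference of 0.16 points (−5.46 to 6.18). The dinucleotide repeats (TG)n or (CA)n were named beside 26 (8.70%), against 43 others (5.08%), a difference of 3.61 points (0.43 to 7.57). Of the others, those in neither other list had a share of 7.25% (19 of 262, 4.69 to 11.0), whose interval overlaps that of the persisting DMRs (6.00 to 12.4), and those also in MLP vs. MLP-F only had 4.08% (23 of 564, 2.73 to 6.04). Within the persisting DMRs, (TG)n or (CA)n stood beside 5 of 118 with a partner score under 75 (4.24%, 1.82 to 9.54), 6 of 86 from 75 to under 100 (6.98%, 3.24 to 14.4), 10 of 64 from 100 to under 150 (15.6%, 8.71 to 26.4) and 5 of 31 at 150 or more (16.1%, 7.09 to 32.6). In the same 4 bands, tandem repeats had shares of 26.3%, 15.1%, 37.5% and 38.7%, and any LINE 1 had 18.6%, 10.5%, 15.6% and 22.6%. The partner score belongs to the rule, so nothing is read from these bands. The DMRs at Lsm6 and Eml1, picked for their high scores, both have (TG)n and tandem repeats named beside them. The satellite RatSatRep2 was named beside 2 persisting DMRs, against 22 others.

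Genes were grouped into 10 lists, which together hold 70 persisting DMRs near 68 genes. The lists were written with the names in the annotation known, so their counts are read beside the 26.1% of all annotated DMRs that persisted and support nothing further. Of the 70 DMRs, 26 had an MLP-F vs. C score of at least 100, beside 31.8% of all persisting DMRs. In 18 of the 70 that score was above the MLP vs. C score. The matching share over all persisting DMRs was not counted, so nothing is read from the 18. Eya4, Irx5, Rfx3, Skap1, Odz2, Ccnf, Kcnip1 and Akr1c12l1 each had 2 annotated DMRs, of which 1 persisted. Cdc2l6 had 3, of which 1 persisted.

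Developmental transcription factors had 15 persisting DMRs of 37 annotated (40.5%, 26.3 to 56.5), at 13 genes. Runx1, a master regulator of blood stem cell formation, had both of its DMRs among them. The intronic one, at chr11:32660441-32661057, scored 127.49 in MLP vs. C and 58.28 in MLP-F vs. C, and the upstream one, at chr11:32954388-32954797, scored 126.83 and 78.98. The intronic DMR lay 630 bp from an MLP vs. MLP-F region. Nfe2l3, a basic leucine zipper factor, also had both of its DMRs in the set. Its upstream DMR at chr4:79564602-79565564 scored 122.18 in MLP vs. C and 70.66 in MLP-F vs. C, with 449 of its 963 bp shared. The intronic DMR of Nfe2l3 at chr4:79685230-79686133 scored 129.18 and 160.34.

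The other transcription factors had MLP-F vs. C scores from 51.19 at Ets2 to 115.54 at Gata3. Gata3, which directs T helper cell development, had an upstream DMR at chr17:79955734-79956314 that scored 128.33 in MLP vs. C, with 304 of its 581 bp shared. Irx5, an Iroquois homeobox gene, had an upstream DMR that scored 126.78 in MLP vs. C and 90.37 in MLP-F vs. C. Eya4, a phosphatase and transcriptional co-activator, scored 123.16 and 106.24, also upstream. Foxn3, a forkhead factor, Rfx3 and Rfx4, winged-helix factors, and Mkx, a homeobox factor of tendon, had intronic DMRs with MLP-F vs. C scores of 89.31, 74.14, 63.98 and 56.26. Zfp217, a zinc finger factor, had a downstream DMR that scored 126.18 in MLP vs. C and 85.18 in MLP-F vs. C, only 75 bp from an MLP vs. MLP-F region.

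Genes of insulin signalling, FOXO factors and energy balance had 6 persisting DMRs of 16 annotated (37.5%, 18.5 to 61.4). Fto encodes a demethylase of RNA that is linked to body weight. Its intronic DMR at chr19:16602030-16602537 scored 124.66 in MLP vs. C and 105.48 in MLP-F vs. C. Foxo3, a transcription factor that insulin signalling holds out of the nucleus, had a downstream DMR at chr20:46267726-46268454 that scored 130.63 and 84.15 and lay 770 bp from an MLP vs. MLP-F region. Pdk1, a kinase that switches off pyruvate dehydrogenase, had a downstream DMR at chr3:54337327-54337900 that scored 129.4 and 159.43.

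Ucp1, the uncoupling protein of brown fat mitochondria, had the highest MLP-F vs. C score of this group. Its downstream DMR at chr19:26560285-26560863 scored 127.73 in MLP vs. C and 184.96 in MLP-F vs. C. Ceacam1, which promotes insulin clearance by the liver, had an upstream DMR that scored 129.4 and 73.98. Sort1, a sorting receptor that affects lipoprotein secretion, had an intronic DMR that scored 129.4 and 59.02. The MLP-F vs. C score was above the MLP vs. C score at Ucp1 and Pdk1 and below it at the other 4 genes.

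Lipid metabolism had 6 persisting DMRs of 27 annotated (22.2%, 10.6 to 40.8). Gpam, the mitochondrial enzyme that starts glycerolipid synthesis, had a downstream DMR at chr1:261054078-261054595 that scored 130.75 in MLP vs. C and 65.75 in MLP-F vs. C. Higher MLP-F vs. C scores were found at intronic DMRs of Ugt8, which makes galactosylceramide (167.69), of Lpar1, a receptor for lysophosphatidic acid (160.54), and of Etnk1, an ethanolamine kinase (129.5). Atp10a, a phospholipid flippase, had 83.09 and Far2, a fatty acyl-CoA reductase, 71.83. In this group Ugt8, Lpar1 and Etnk1 thus scored higher in MLP-F vs. C than in MLP vs. C, where their scores were 127.73, 128.71 and 126.61.

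One-carbon metabolism and DNA methylation had 1 persisting DMR of 4 annotated, downstream of Tet1 at chr20:25034033-25034633. Tet1 encodes an enzyme that oxidises methylated cytosine, a step towards its removal. The DMR scored 122.25 in MLP vs. C and 108.56 in MLP-F vs. C, and 561 of its 601 bp were shared. Renin-angiotensin and steroid hormone genes had 2 of 7. The intronic DMR of Nr3c2, which encodes the mineralocorticoid receptor, scored 122.25 in MLP vs. C and 145.94 in MLP-F vs. C. The downstream DMR of Akr1c12l1, an aldo-keto reductase, scored 131.02 and 67.77 and has L1_Rn named beside it.

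Chromatin and transcription regulators had 7 persisting DMRs of 29 annotated (24.1%, 12.2 to 42.1). Setd2, the methyltransferase that trimethylates lysine 36 of histone H3, had the highest MLP-F vs. C score of the group. Its intronic DMR at chr8:114936275-114936960 scored 127.81 in MLP vs. C and 204.83 in MLP-F vs. C. Prdm8, a PR domain factor, had an upstream DMR at chr14:12863148-12863750 that scored 129.18 and 140.6 and was wholly covered. Arid5b, a DNA-binding partner of a histone demethylase, had an intronic DMR at chr20:21136781-21137664 with nearly equal scores of 127.95 and 126.16. Of its 884 bp, 566 were shared. MLP-F vs. C scores were lower at Cdk8, a kinase of the Mediator complex (77.65), Arid2, a subunit of a SWI/SNF remodelling complex (69.07), Chd9, a chromodomain helicase (60.51) and Mllt3, a subunit of the super elongation complex (56.95).

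Cell cycle, centrosome and DNA repair genes had 9 persisting DMRs of 31 annotated (29.0%, 16.1 to 46.6). The highest MLP-F vs. C scores were at Cep135, a centriole protein (169.93), Nsmce4a, a subunit of the SMC5/6 complex (167.52), and Diaph3, a formin that acts in cytokinesis (146.6). Their MLP vs. C scores were 126.83, 122.66 and 124.79. Cep350, a centrosome protein, had an intronic DMR at chr13:70993559-70993874 that scored 130.41 in MLP vs. C and 128.48 in MLP-F vs. C. Btg3, an antiproliferative gene, had an upstream DMR of 1497 bp, all covered, that scored 129.35 and 121.2. The lowest MLP-F vs. C scores of the group were at Ccnf, which encodes cyclin F (63.15), Cdc2l6, now named Cdk19 (62.1), and Nsmce1, another subunit of the SMC5/6 complex (55.7).

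T cell and immune genes had 8 persisting DMRs of 33 annotated (24.2%, 12.8 to 41.0), with both Runx1 DMRs and that of Gata3 among them. Skap1, an adaptor of T cell receptor signalling, had an intronic DMR of 1699 bp at chr10:85285952-85287650 that scored 131.61 in MLP vs. C and 162.19 in MLP-F vs. C and was wholly covered. Camp, the cathelicidin antimicrobial peptide, scored 125.89 and 142.13, and Vav3, a guanine nucleotide exchange factor, 127.07 and 134.77, both upstream. Only 624 of the 1247 bp of the Vav3 DMR were shared. Foxp1, a forkhead transcription factor, had an intronic DMR that scored 127.09 in MLP vs. C and 80.5 in MLP-F vs. C. Il33, an alarmin cytokine, had a downstream DMR that scored 128.19 and 96.37.

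**Figure D5:**
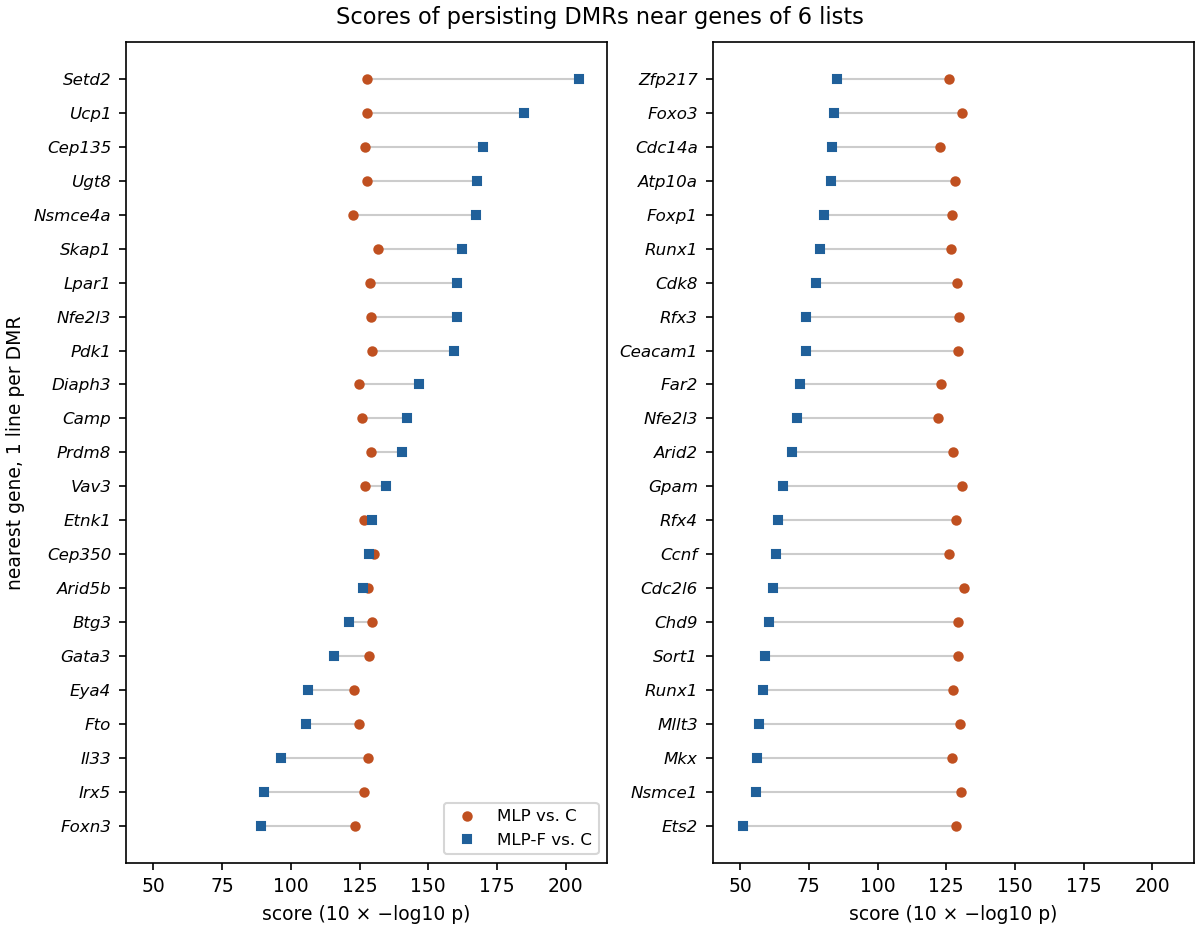
MLP vs. C score (orange circles) and score of the overlapping MLP-F vs. C region (blue squares) on the x axis, with 1 line for each of 46 persisting DMRs near genes of 6 lists (y), ordered by the MLP-F vs. C score. The circles lie in the narrow band of MLP vs. C scores of the annotated DMRs, while the squares run from 51.19 at Ets2 to 204.83 at Setd2 and lie to the right of the circle in 14 of the 46.

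Synapse, axon guidance and neuronal adhesion genes had 11 persisting DMRs of 56 annotated (19.6%, 11.3 to 31.8). Their MLP-F vs. C scores ranged from 56.26 at Slc18a2, a vesicular monoamine transporter, to 150.18 at Odz2, a teneurin now named Tenm2. Syt1, the calcium sensor of synaptic vesicle release, scored 125.16 in MLP vs. C and 128.05 in MLP-F vs. C, and Ntn1, the axon guidance cue netrin, 128.71 and 77.65. Ion channels and membrane transporters had 11 of 41 (26.8%, 15.7 to 41.9), with MLP-F vs. C scores from 50.32 at Slc30a10, a manganese transporter, to 118.57 at Vdac3, a channel of the outer mitochondrial membrane. All 11 had an MLP-F vs. C score below the MLP vs. C score. Over all annotated members the median MLP-F vs. C score was 82.45 and the lowest MLP vs. C score 121.79. Nothing is therefore read from this count.

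Further persisting DMRs lay at other loci named in the study. Intronic DMRs scored 60.51 in MLP-F vs. C at Vti1a, a SNARE protein, 67.52 at Serpina11, a member of the serpin family, 60.13 at Myh10, a nonmuscle myosin, 53.02 at Dym and 62.06 at the entry GLRX2_RAT, a glutaredoxin. Their MLP vs. C scores were 129.18, 124.93, 126.61, 126.97 and 127.18. An upstream DMR of 1385 bp at Prep, which encodes prolyl endopeptidase, scored 123.62 in MLP vs. C and 121.86 in MLP-F vs. C. Only 719 bp of it were shared. Vti1a and Dym each had another annotated DMR, which did not persist.

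Small RNA genes were the nearest gene of 27 persisting DMRs (9.03%, 6.28 to 12.8), against 96 of the others (11.3%, 9.38 to 13.7). SNORA17, a small nucleolar RNA with many annotated copies, was the nearest gene of 9 persisting DMRs on chromosomes 2, 4, 6, 8, 11, 13 and 16, of 38 annotated DMRs with that name. Their MLP-F vs. C scores ranged from 51.08 to 310.81, and 3 of them have L1_Rn named beside them. U6 and 7SK were each named for 4 persisting DMRs, of 19 and 17 annotated, and U4 and SNORA48 for 2 each, of 3 each. Besides these small RNAs, Runx1 and Nfe2l3 were the only gene names with more than 1 persisting DMR.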

How the data were processed

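For each pair of the 3 pooled libraries, the authors ran MACS on read pairs that Bowtie had aligned to the rat assembly rn4. CASAVA is also named in the submitters' processing notes. No tool version is given in the sources used here. Each region of the authors' deposited lists carries a score (the MACS p as −log10, multiplied by 10) and no read counts.

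Starts were converted to 1-based positions, and overlaps of 1 bp or more between lists were found with Python 3.11.15, numpy 2.4.6 and pandas 2.3.3. The overlap code was tested on simulated data, and bedtools 2.31.1 gave the same count of 7380 members. Nearest gene, place and repeat names are those of the study's annotation, without its values. Shares have 95% Wilson intervals and their differences Newcombe intervals. Of the 299 annotated members, 193 matched a current RefSeq symbol. No sequence of rn4 was used.

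Alternatives were a score of at least 100, the 10000 highest regions of each list, a reciprocal overlap of 50%, and no MLP vs. MLP-F region within 1 kb. Named were the members near genes of 10 lists, at loci named in the study, with the 10 highest scores of each kind, or sharing a gene name. The members and lists were chosen with earlier results of these data known. The expression arrays of the study were not used here.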

Additional observations from a re-analysis of the deposited data

Results flagged for a closer look

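Regions outside chromosomes 1 to 20 were not counted as members, and some met the same overlap rule. On chromosome X, 120 of 938 MLP vs. C regions did (12.8%, 95% Wilson interval 10.8 to 15.1), with MLP vs. C scores up to 888.12 and partner scores up to 559.07. This share lies below that of each of chromosomes 1 to 20, where the lowest was 19.0%. On X, 57.8% of the MLP vs. C regions overlapped a region of the MLP vs. MLP-F list. Among sequences not placed on a chromosome, 245 of 934 regions met the rule (26.2%, 23.5 to 29.1), with partner scores up to 2244.89, and 35.3% overlapped an MLP vs. MLP-F region. The difference between X and the other chromosomes has no replicate check.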

How the results depend on the processing

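With only regions scoring at least 100 in each list, 1063 regions met the rule, 1025 of them among the 7380, with a median score of 159.35 and a median length of 702 bp. With the 10000 highest-scoring regions of each list, 1619 met it, 1541 of them among the 7380, with medians of 156.59 and 703 bp. A reciprocal overlap of 50% left 6823 (medians 85.73 and 663 bp), and leaving out regions within 1 kb of an MLP vs. MLP-F region left 7154 (85.355 and 658 bp). These settings keep regions by score, overlap or distance, so the medians move with the regions kept. At a score of at least 100, the share of annotated DMRs that persisted was 8.30% in place of 26.1%, and 37.9% of those named a tandem repeat in place of 26.8%. The intronic share stayed between 37.9% and 42.4% under the 3 settings run for it. No paired analysis was possible because each group has 1 library, and no library could be left out for the same reason. The depth behind each region is unknown, so a region missing from a list may lie just under its p cut-off.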
